A study of Mus musculus with 15 samples.

Results

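The 10 genes described here encode collagen chains, collagen-binding matrix proteins and niche factors of the bone marrow stroma: Col1a1, Col1a2, Col3a1, Col6a1, Col6a2, Col6a3, Sparc, Bgn, Cxcl12 and Lepr. They are 10 of the 23337 gene symbols in the files. They were selected on measured values, namely their higher levels in the knockout (KO) libraries numbered 1 and 2 than in the wild type (WT), so those differences are given below as a description and carry no test. RNA was sequenced from 15 libraries of mouse bone marrow progenitors. Common myeloid progenitors (CMP) had been sorted as cells negative for lineage markers and Sca1, positive for CD117 and CD34, and low for CD16/32, and granulocyte-monocyte progenitors (GMP) by the same markers with high CD16/32. The groups were Trappc1 KO CMP (n = 4), WT CMP (n = 4), Trappc1 KO GMP (n = 3, numbered 1, 3 and 4) and WT GMP (n = 4), all untreated. Trappc1 encodes a subunit of the TRAPP complexes, which tether transport vesicles. The sources used here do not give the deleted part of Trappc1, any Cre driver or the age of the mice. Separate animals are not stated for the libraries either. The p-values therefore reflect how much these libraries vary, which may be technical.

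Bone marrow stroma consists of perivascular reticular cells, bone-lining cells and other supporting cells. Perivascular reticular cells carry the leptin receptor Lepr and secrete the chemokine Cxcl12, which holds blood progenitors in the marrow through the receptor Cxcr4. Fibrillar collagens I and III, beaded filaments of collagen VI, the collagen-binding glycoprotein Sparc and the small proteoglycan biglycan (Bgn) form the matrix around these cells. Progenitors sorted by blood-cell surface markers are not known as a main source of fibrillar collagen. In RNA from a pool of cells, fewer cells of a type and less RNA per cell cannot be told apart.

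Positions are from GENCODE M21 (GRCm38), in which all 10 genes are protein coding. The fibrillar collagen genes are Col1a1 (chr11:94936224-94953042, plus strand), Col1a2 (chr6:4504814-4541544, plus) and Col3a1 (chr1:45311538-45349706, plus). The collagen VI genes are Col6a1 (chr10:76708792-76726168, minus), its near neighbour Col6a2 (chr10:76595762-76623630, minus) and Col6a3 (chr1:90765923-90843971, minus). The others are Sparc (chr11:55394500-55423183, minus), Bgn (chrX:73483602-73495933, plus), Cxcl12 (chr6:117168535-117181367, plus) and Lepr (chr4:101717404-101815352, plus). Col1a2, Col3a1 and Col6a3 each overlap another annotated gene on the same strand, and the assignment of reads in the overlap is uncertain. RefSeq promoters (GRCm38.p6) were matched for 9 of the 10 genes. The 150 bases before the RefSeq start are shown for Col1a2 (chr6:4505468-4505617, plus strand), Cxcl12 (chr6:117168385-117168534, plus strand) and Col3a1 (chr1:45311388-45311537, plus strand), because these genes varied together across libraries and each of their windows holds another of the searched motifs. Capitals mark matches, on either strand, to the CCAAT box in Col1a2, to the GGGCGG motif (CCGCCC on the other strand) in Cxcl12 and to the TATAAA motif in Col3a1.
Col1a2: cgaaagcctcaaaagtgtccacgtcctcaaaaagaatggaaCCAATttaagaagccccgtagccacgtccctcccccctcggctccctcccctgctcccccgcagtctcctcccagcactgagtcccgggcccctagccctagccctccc
Cxcl12: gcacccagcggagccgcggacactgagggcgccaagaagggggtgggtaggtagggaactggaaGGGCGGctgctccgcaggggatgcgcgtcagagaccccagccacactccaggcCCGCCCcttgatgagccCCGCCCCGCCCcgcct
Col3a1: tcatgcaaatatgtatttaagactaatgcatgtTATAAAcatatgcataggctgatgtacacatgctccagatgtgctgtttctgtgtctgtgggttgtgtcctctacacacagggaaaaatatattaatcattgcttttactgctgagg
Within 250 bases before the start, on both strands, CCAAT was present in 2 of the 9 members' promoters (Col1a2 and Lepr) and in 33.8% of 32851 mouse promoters. The TATAAA motif was present in 1 (Col3a1) and in 12.4% of all promoters. The GGGCGG motif was present in 5 (Bgn, Col1a2, Col6a2, Cxcl12 and Lepr) and in 32.7% of all promoters. A member was counted if any of its promoters held the motif, and Lepr and Col6a2 have more than 1 promoter, whereas the percentages are per promoter. Matches on the minus strand overlap near the Cxcl12 start. A match is a description of the letters, not of a bound site.

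Trappc1, the targeted gene, measured 5.56, 3.83, 11.7 and 13.4 CPM (counts scaled to the same total in each library) in KO CMP 1 to 4, against 18.4, 26.2, 18.8 and 25.2 CPM in WT CMP 1 to 4. It measured 6.09, 24.1 and 25.2 CPM in KO GMP 1, 3 and 4, against 41.3, 37.0, 30.9 and 33.3 CPM in WT GMP 1 to 4. Each KO library lay below each WT library of its cell type, and KO CMP 1, KO CMP 2 and KO GMP 1 lay lowest. Depth ran from 15.3 to 30.1 M fragments per library. The same 3 KO libraries stood apart in other genes. Xist, the RNA that coats the inactive X chromosome, measured 109 and 204 CPM in KO CMP 1 and 2 and 123 CPM in KO GMP 1, and at most 2.17 CPM in the other 12 libraries. The Y-linked gene Ddx3y measured 57.5 to 83.4 CPM in these 3 libraries and 62.5 to 100.7 CPM in the others. The part that such differences between libraries play in the results below was not tested, and all main values are therefore given library by library.

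The stromal genes were high in KO CMP 1, KO CMP 2 and KO GMP 1, intermediate in WT CMP 1 and 2, and, apart from Cxcl12 and Bgn, at 0 to 8 fragments per library in WT GMP. Their summed level was 201, 274, 10.7 and 8.11 CPM in KO CMP 1 to 4, against 25.3, 33.1, 8.90 and 7.40 CPM in WT CMP 1 to 4. It was 99.6, 1.41 and 2.23 CPM in KO GMP 1, 3 and 4, against 3.51, 3.13, 1.39 and 1.44 CPM in WT GMP 1 to 4. Libraries of the same group thus differed by more than an order of magnitude in KO, while libraries of the same number set (1 and 2, or 3 and 4) and group lay close together. Without numbers 1 and 2, it spanned 8.11 to 10.7 CPM in KO CMP and 7.40 to 8.90 CPM in WT CMP.

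**Figure D1:**
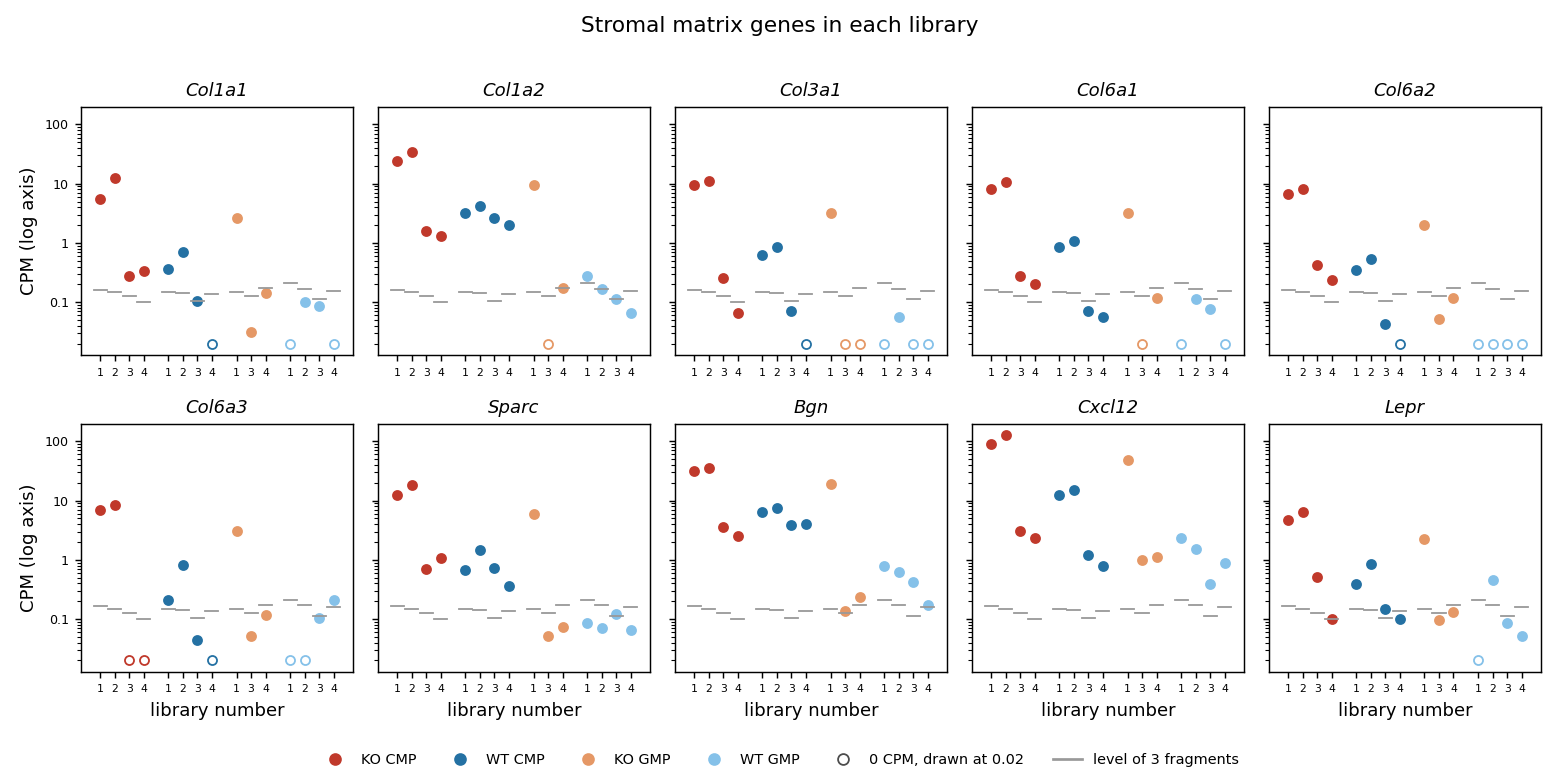
CPM of each of the 10 genes (log axis) in every library, by group and library number, with 0 drawn as an open circle at 0.02 and a grey line at the level of 3 fragments. KO CMP 1, KO CMP 2 and KO GMP 1 lie highest in each panel, and most WT GMP points lie at or under the grey line, those of Cxcl12 and Bgn above it.

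Among the fibrillar collagens, Col1a2, the alpha 2 chain of type I collagen, had the highest level per kilobase of transcript in KO CMP 1 and 2 (5.47 CPM, against 1.87 for Col3a1 and 1.54 for Col1a1). It measured 24.0, 34.4, 1.59 and 1.30 CPM in KO CMP 1 to 4, against 3.16, 4.14, 2.67 and 2.02 CPM in WT CMP 1 to 4. It measured 9.62, 0 and 0.174 CPM in KO GMP 1, 3 and 4, against 0.277, 0.170, 0.114 and 0.0655 CPM in WT GMP 1 to 4. KO CMP 3 and 4 lay below all 4 WT CMP libraries, so KO CMP was above WT CMP at numbers 1 and 2 and below it at numbers 3 and 4. The difference at numbers 3 and 4 did not pass the test across all genes, as given further on.

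Col1a1, which encodes the alpha 1 chain that pairs with Col1a2, measured 5.54, 12.7, 0.273 and 0.333 CPM in KO CMP 1 to 4, against 0.367, 0.714, 0.105 and 0 CPM in WT CMP 1 to 4. It measured 2.67, 0.0316 and 0.145 CPM in KO GMP 1, 3 and 4, against 0, 0.0990, 0.0851 and 0 CPM in WT GMP 1 to 4. KO CMP 1 and 2 and KO GMP 1 stand above all other libraries, and KO GMP 3 and 4 overlap WT GMP. Type I collagen is built with more alpha 1 than alpha 2 chains, and here the CPM per kilobase of Col1a2 was 4.805, 3.002, 6.48 and 4.32 times that of Col1a1 in KO CMP 1 to 4, against 9.54, 6.43 and 28.2 times in WT CMP 1 to 3. In KO GMP 1 the ratio was 3.99. The ratio of WT CMP 3 rests on 3 fragments of Col1a1.

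Col3a1, the type III collagen chain of reticular fibres, measured 9.51, 11.3, 0.252 and 0.0665 CPM in KO CMP 1 to 4, against 0.624, 0.869, 0.0699 and 0 CPM in WT CMP 1 to 4. It measured 3.16, 0 and 0 CPM in KO GMP 1, 3 and 4, against 0, 0.0566, 0 and 0 CPM in WT GMP 1 to 4. Outside library numbers 1 and 2, Col3a1 passed the level of 3 fragments in 1 library, KO CMP 3.

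Col6a1, Col6a2 and Col6a3 encode collagen VI chains, which assemble into beaded filaments around cells. Col6a1 measured 8.27, 10.8, 0.273 and 0.200 CPM in KO CMP 1 to 4, against 0.857, 1.09, 0.0699 and 0.0565 CPM in WT CMP 1 to 4. Col6a2 measured 6.62, 8.24, 0.419 and 0.241 CPM in KO CMP 1 to 4, against 0.355, 0.536, 0.0437 and 0 CPM in WT CMP 1 to 4. For both chains KO CMP 3 and 4 lay above WT CMP 3 and 4, and for Col6a2 KO CMP 3 also lay between WT CMP 1 and WT CMP 2. Col6a3, the longest chain, measured 7.06, 8.31, 0 and 0 CPM in KO CMP 1 to 4, against 0.208, 0.809, 0.0437 and 0 CPM in WT CMP 1 to 4. It was the one member with no read in KO CMP 3 and 4, where a count of 0 allows up to 3 fragments per library (0.126 and 0.0998 CPM). In GMP, Col6a1, Col6a2 and Col6a3 measured 3.22, 2.02 and 3.12 CPM in KO GMP 1, and each was between 0 and 0.116 CPM in KO GMP 3 and 4. In WT GMP 1 to 4, Col6a1 measured 0, 0.113, 0.0757 and 0 CPM, Col6a3 measured 0, 0, 0.104 and 0.210 CPM, and Col6a2 had no read. For Col6a1 and Col6a3, KO GMP 3 and 4 thus overlapped WT GMP. Per kilobase, KO CMP 1 and 2 averaged 2.33 CPM for Col6a1, 1.88 CPM for Col6a2 and 0.854 CPM for Col6a3.

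Sparc, which binds collagen and helps fibrils assemble, measured 12.5, 18.1, 0.692 and 1.08 CPM in KO CMP 1 to 4, against 0.661, 1.49, 0.717 and 0.361 CPM in WT CMP 1 to 4. It measured 5.84, 0.0526 and 0.0726 CPM in KO GMP 1, 3 and 4, against 0.0865, 0.0707, 0.123 and 0.0655 CPM in WT GMP 1 to 4. KO CMP 3 and 4 lay within the range of WT CMP, and KO GMP 3 lay below all WT GMP libraries on about 1 fragment.

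Bgn encodes biglycan, a small leucine-rich proteoglycan that binds collagen and can signal through Toll-like receptors. It measured 31.3, 36.0, 3.59 and 2.48 CPM in KO CMP 1 to 4, against 6.33, 7.50, 3.85 and 4.08 CPM in WT CMP 1 to 4. It measured 19.0, 0.137 and 0.232 CPM in KO GMP 1, 3 and 4, against 0.796, 0.622, 0.416 and 0.170 CPM in WT GMP 1 to 4. As for Col1a2, KO CMP 3 and 4 lay below all WT CMP libraries. Over KO CMP 1 and 2 it averaged 33.7 ± 3.34 CPM, against 6.91 ± 0.827 CPM over WT CMP 1 and 2 (SD, n = 2 each). KO GMP 4 lay within the range of WT GMP and KO GMP 3 below it.

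Cxcl12, the niche chemokine, had the highest level of the 10 per kilobase of transcript, with 34.8 CPM in KO CMP 1 and 2, against 4.38 CPM in WT CMP 1 and 2. In WT CMP 3 and 4 the highest was Bgn, at 1.64 CPM per kilobase against 0.314 for Cxcl12. It measured 91.0, 127, 3.11 and 2.31 CPM in KO CMP 1 to 4, against 12.3, 15.1, 1.19 and 0.779 CPM in WT CMP 1 to 4. It measured 48.7, 0.990 and 1.13 CPM in KO GMP 1, 3 and 4, against 2.35, 1.54, 0.388 and 0.877 CPM in WT GMP 1 to 4. Within each number set, KO CMP lay above WT CMP, and WT CMP 1 and 2 lay above KO CMP 3 and 4. KO GMP 3 and 4 lay above WT GMP 3 and 4 and below WT GMP 1 and 2.

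Lepr, the leptin receptor, measured 4.73, 6.50, 0.514 and 0.0998 CPM in KO CMP 1 to 4, against 0.392, 0.845, 0.149 and 0.102 CPM in WT CMP 1 to 4. It measured 2.22, 0.0948 and 0.131 CPM in KO GMP 1, 3 and 4, against 0, 0.453, 0.0851 and 0.0524 CPM in WT GMP 1 to 4. KO CMP 3 and KO GMP 3 and 4 lay within the WT range of their cell type, and KO CMP 4 lay just under it.

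In numbers 1 and 2, from which the genes were chosen, all 10 had a mean CPM at least 4 times higher in KO CMP than in WT CMP, against 3.16% of all 15181 genes tested. The ratio of mean CPM ran from 4.87 (Bgn) to 16.9 (Col1a1). In GMP, the single KO library 1 was at least 4 times higher than the mean of WT GMP 1 and 2 for all 10, against 7.83% of all genes. With no WT fragment, Col6a2 was at least 10.7-fold and Col6a3 at least 16.5-fold higher, against a floor of 3 fragments per library. Cxcl12 was 25.02 times higher and Bgn 26.8 times higher in KO GMP 1 than in WT GMP 1 and 2. In the fit across all genes, 8.23% of genes were called higher in KO CMP and 11% in KO GMP at numbers 1 and 2. Since these contrasts chose the genes, nothing further is read from them for the 10 genes. Other genes in these contrasts are described below, and those that vary with the 10 are not independent of the choice. Over all libraries of a group, KO CMP lay wholly above WT CMP for 0 of the 10 genes (3.25% of all genes). KO GMP lay wholly above WT GMP for 1 of the 10, Col6a2 (3.64% of all genes). That separation rests on 3 fragments of Col6a2 in KO GMP 3 and 4 together, with no fragment in WT GMP.

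The proportions of the members were near each other but not equal in the 3 KO libraries in which they were high. KO CMP 2 over KO CMP 1 ran from 1.15 (Bgn) to 2.29 (Col1a1), with a median of 1.34. KO GMP 1 over KO CMP 1 ran from 0.305 (Col6a2) to 0.607 (Bgn), with a median of 0.454. Cxcl12 made up 45.4% and 46.5% of the summed level in KO CMP 1 and 2 and 48.9% in KO GMP 1. In WT CMP 1 and 2 the share of Cxcl12 was 48.8% and 45.7%. Other shares differed: Bgn made up 15.6% and 13.2% in KO CMP 1 and 2, against 25.04% and 22.6% in WT CMP 1 and 2, and Sparc made up 6.24% and 6.62% in KO CMP 1 and 2, against 2.62% and 4.49% in WT CMP 1 and 2. Relative to KO CMP 1, WT CMP 1 ran from 0.0295 (Col6a3) to 0.202 (Bgn), with a median of 0.0745.

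**Figure D2:**
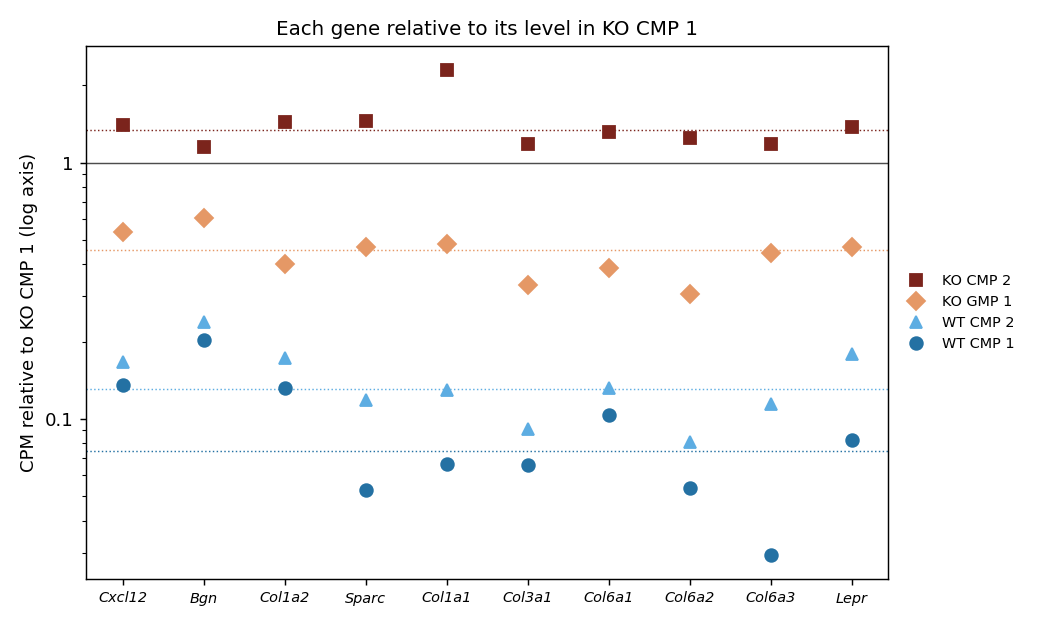
CPM of each gene divided by its CPM in KO CMP 1 (log axis) for KO CMP 2, KO GMP 1, WT CMP 2 and WT CMP 1, with a dotted line at the median of each library. KO CMP 2 lies at 1.15 to 2.29 and KO GMP 1 at 0.305 to 0.607, while Bgn is highest in WT CMP 1 at 0.202.

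The make-up was different in the CMP libraries numbered 3 and 4. Bgn made up 33.5% and 30.6% of the summed level in KO CMP 3 and 4, against 43.2% and 55.1% in WT CMP 3 and 4. Cxcl12 made up 29.1% and 28.5% in KO CMP 3 and 4, against 13.4% and 10.5% in WT CMP 3 and 4. Col1a2 made up 14.9% and 16.0% in KO CMP 3 and 4, against 30.0% and 27.3% in WT CMP 3 and 4. Between the number sets of WT CMP, mean Cxcl12 was 14.0 times and mean Col3a1 21.3 times higher at numbers 1 and 2 than at numbers 3 and 4, whereas mean Bgn was 1.74 times and mean Col1a2 1.56 times higher. The 95% intervals of the fragment ratio, which cover counting error only, were 10.3 to 18.6 for Cxcl12 and 1.46 to 2.12 for Bgn, and do not overlap. The ratio between number sets of WT CMP thus differed between these genes beyond counting error.

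**Figure D3:**
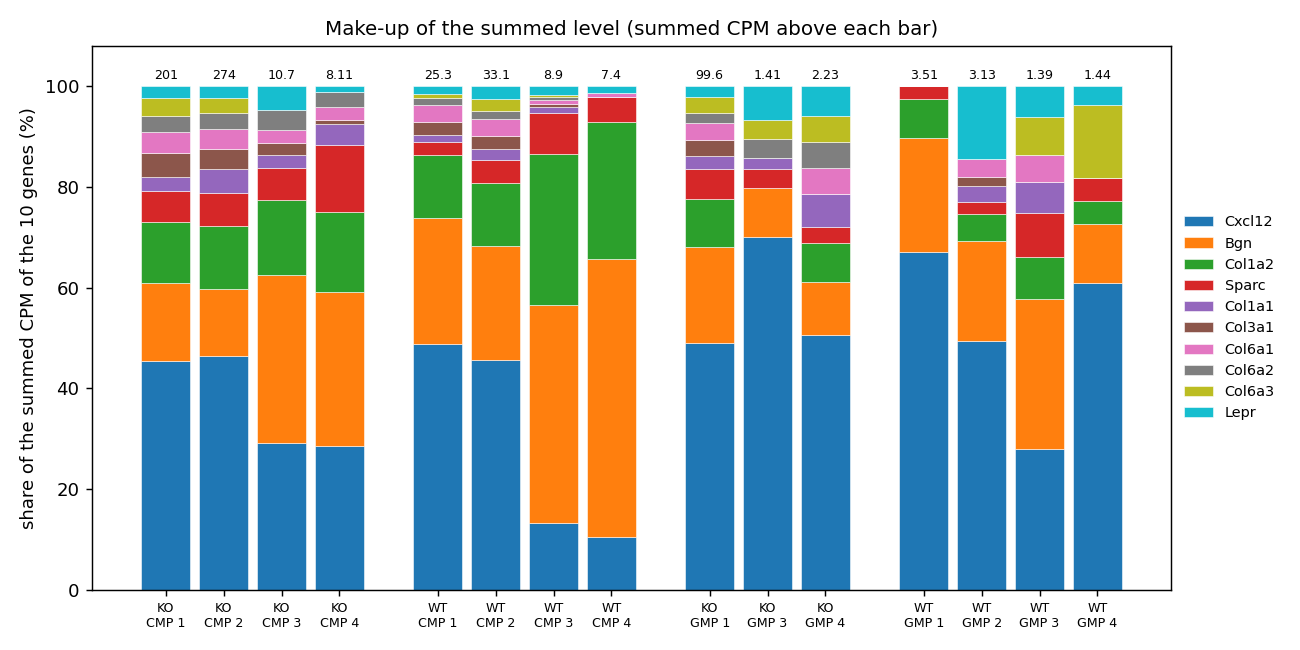
Share of each gene in the summed CPM of the 10 genes (percent) for every library, with the summed CPM above each bar. KO CMP 1, KO CMP 2, WT CMP 1, WT CMP 2 and KO GMP 1 have like shares of Cxcl12 (45.4% to 48.9%), while Bgn and Col1a2 fill most of the WT CMP 3 and 4 bars. The share of Cxcl12 is near that range in WT GMP 2 (49.3%) and KO GMP 4 (50.6%) too, where the summed level is low.

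Whether the genes differed by genotype was tested in the libraries numbered 3 and 4, which the choice of the genes did not use. A fold change is given where a gene passed 3 fragments in every library of at least 1 of the groups compared. In CMP, 7 of the 10 genes did so and none was called higher or lower in KO by edgeR's quasi-likelihood test, against 0.00659% (1 gene) of all tested genes called higher and 0 called lower. Cxcl12 had a log2 change of 1.44 ± 0.31 (SE) in KO CMP (adjusted p = 0.234). Cxcl12 had an unadjusted p of 0.00064 and Col6a2 of 0.000984, and for the other 8 the unadjusted p was at least 0.0514. DESeq2, run on the same design, called both genes, Cxcl12 with an adjusted p of 0.00177 and Col6a2 with 0.00595, and called 138 genes in all. Col6a2 passed the level of 3 fragments through KO CMP alone, so its p-values are a description and no support for a difference. Bgn (log2 change -0.39 ± 0.26, adjusted p = 0.589), Col1a2 (-0.70 ± 0.44, adjusted p = 0.559) and Sparc (0.71 ± 0.43, adjusted p = 0.556) did not pass with edgeR.

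For Col1a1, Col6a1 and Col6a2, WT CMP 3 and 4 together held 3, 3 and 1 fragments, so ratios of fragments with exact 95% counting intervals are given instead of fold changes. Col6a2 had 17 fragments in KO CMP 3 and 4 and 1 in WT CMP 3 and 4, a ratio of 16.0 (2.51 to 669). Col1a1 had 16 in KO and 3 in WT, a ratio of 5.02 (1.44 to 26.9). Col6a1 had 12 in KO and 3 in WT, a ratio of 3.76 (1.02 to 20.8). These intervals leave out the spread between libraries. All 3 genes passed the level of 3 fragments through KO CMP alone, where they were higher, so their ratios are a description. The median log2 change of the 10 genes was 1.34, against -0.01 for all genes, and 5 of the 10 rested on 3 or fewer fragments in 1 group. Without Col6a3, for which no fold could be given, it was 1.44 over 9.

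In GMP numbered 3 and 4, Cxcl12 and Bgn passed the level of 3 fragments. Neither was called by edgeR, with a log2 change in KO of 0.79 ± 0.38 for Cxcl12 and -0.76 ± 0.43 for Bgn (adjusted p = 1 for both), and none of the 10 was called, against 0.00659% of all genes in each direction. The unadjusted p was 0.0599 for Cxcl12 and 0.0981 for Bgn, and 0.00432 for Col6a2 with 3 fragments in KO and 0 in WT. DESeq2 called none of the 10. Without WT GMP 3 the log2 change of Bgn was 0.08, so its sign rests on that library. The other 8 genes had 0 to 4 fragments in every one of these libraries, so a difference was not detectable at this depth. The median log2 change of the 10 was 0.14, and of the other sign, -0.002252, over the 8 genes left without those for which no fold could be given, against -0.000739 for all genes. A difference of the KO change between CMP and GMP at numbers 3 and 4 was called by edgeR for 0 of the 10 (0.00659% of all genes in each direction), and the lowest unadjusted p was 0.126, for Sparc.

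GMP was compared with CMP in the KO libraries numbered 3 and 4, which did not enter the choice of the genes, and in WT, where libraries 1 and 2 did enter it. In KO libraries 3 and 4, Bgn, Col1a2, Sparc and Cxcl12 were lower in GMP than in CMP. Bgn fell by 4.07 on the log2 scale (SE 0.36, adjusted p = 2.20e-06), Col1a2 fell by 4.23 (SE 0.65, adjusted p = 0.000228), Sparc fell by 3.83 (SE 0.58, adjusted p = 0.000204) and Cxcl12 fell by 1.36 (SE 0.32, adjusted p = 0.00539), by edgeR's quasi-likelihood test. Each was lower in both KO GMP libraries than in both KO CMP libraries. Col6a2 fell by 1.99 (SE 0.71, adjusted p = 0.0494), and the call was lost with the library number as a block (adjusted p = 0.0730) and without any single KO library. Without KO GMP 3 the call of Cxcl12 was lost as well (adjusted p = 0.0539). Col1a1 and Col6a1 passed the fragment level and were not called, though Col6a1 was called without KO GMP 4 (adjusted p = 0.0249). Over all genes, 19.1% were called lower and 17.9% higher. The number of members called is not read against these shares, because Col1a1, Col1a2, Col6a1, Col6a2 and Sparc passed the level of 3 fragments through KO CMP alone, with 0 to 3 fragments in KO GMP 3 and 4. Their p-values are a description for the same reason, since only a lower level in GMP could be seen. Bgn and Cxcl12 passed that level in both groups. Over all KO libraries, GMP 1 included, KO CMP lay wholly above KO GMP for 0 of the 10 (14.5% of all genes). Col1a2 rested on 3 and Sparc on 2 fragments in KO GMP 3 and 4, against 77 and 49 in KO CMP 3 and 4. The calls for Col3a1 and Col6a3 are not read, because each rests on 8 or fewer fragments in both groups together. The median log2 change of the 10 was -2.07, or -1.99 over 9 genes with Col3a1 at its bound and Col6a3 left out, against -0.03 for all genes.

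Over all 4 WT libraries of each sort, Col1a2 was lower in GMP (log2 change -4.30 ± 1.51, adjusted p = 0.0496 by edgeR), and 14.2% of all genes were called lower and 11.3% higher. WT libraries 1 and 2 were part of the contrast that chose the genes, so the values over all WT libraries are not independent of that choice. That call was lost without any single WT library (adjusted p = 0.0662 to 0.116), with RLE scaling factors (0.0504), with no filter (0.0538) and with values divided by 4 (0.0560). The log2 change of Bgn was -3.46 ± 1.28 (adjusted p = 0.0619), and with the library number as a replicate block it was -3.84 (adjusted p = 0.0109). The log2 change was -3.18 ± 1.38 for Sparc (adjusted p = 0.107) and -2.54 ± 1.49 for Cxcl12 (adjusted p = 0.231). As a description, WT CMP lay wholly above WT GMP for 3 of the 10 genes, Col1a2, Sparc and Bgn, and for 17% of all genes. Numbers 3 and 4 alone, which did not enter the choice of the genes, were an alternative added after the data were seen. There edgeR called Bgn lower in WT GMP (-3.69, adjusted p = 2.20e-06) and did not call Cxcl12 (-0.71, adjusted p = 0.159). It also called Col1a2 (-4.64, adjusted p = 6.05e-05) and Sparc (-2.47, adjusted p = 0.00296) lower. These 2 genes had 4 fragments each in WT GMP 3 and 4, against 121 and 28 in WT CMP 3 and 4. With or without numbers 1 and 2, both passed 3 fragments in every library only in WT CMP, so their p-values are a description too. Col6a2 had 0 fragments in WT GMP and 20 in WT CMP, at least 1.44-fold lower against the floor of 3 fragments per library. The median log2 change of the 10 was -3.26, or -2.87 with Col6a2 at its bound, against -0.02 for all genes.

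**Figure D4:**
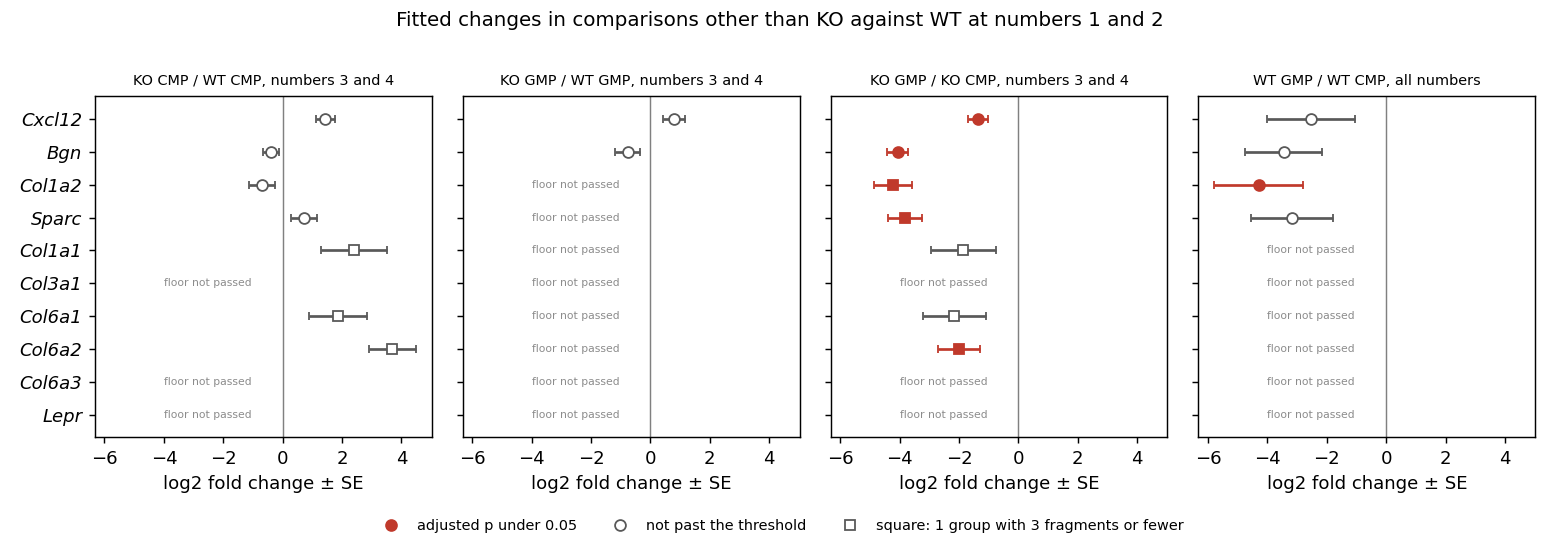
Fitted log2 fold changes ± SE from edgeR for the genes that passed 3 fragments in every library of at least 1 group, in 4 comparisons other than KO against WT at numbers 1 and 2 (a positive value is higher in the first-named group). The comparison in WT holds WT libraries 1 and 2, which entered the choice of the genes. Red marks an adjusted p under 0.05, and squares mark genes with 3 fragments or fewer in 1 group. Bgn, Col1a2, Sparc, Cxcl12 and Col6a2 are red and negative in KO GMP against KO CMP, where only Bgn and Cxcl12 passed the level of 3 fragments in both groups.

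Over the 15 libraries, the 10 genes varied together. The Pearson r of log2(CPM + 0.05) between pairs of members had a median of 0.903 (0.674 to 0.990, 45 pairs). Without KO CMP 1, KO CMP 2 and KO GMP 1 the median over 12 libraries was 0.729, and the lowest pair was Col6a3 with Bgn at 0.0764. These values share the libraries, their depth and the selection of the genes, and are a description. The genes whose profile was most like the mean profile of the 10 were Fbln5 (fibulin 5, an elastic fibre protein, r = 0.978), Efemp1 (fibulin 3, r = 0.974) and Nedd4 (a ubiquitin ligase, r = 0.970), followed by Stau2, Prrx1, Kng2, Col8a1, Dpep1, Bicc1 and Nid1 (r = 0.963). Fbln5 measured 3.53, 5.63, 0.0524 and 0.0998 CPM in KO CMP 1 to 4, against 0.465, 0.928, 0.0787 and 0.0565 CPM in WT CMP 1 to 4. With a pseudocount of 0.5, 4 of these 10 genes stayed among the nearest. Xist ranked 113 of 15171 genes with r = 0.908.

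The label of marrow stroma was set beside other stromal markers as a description. Numbers 1 and 2 are the contrasts that chose the 10 genes, so genes that vary with them there are not independent support for the label. Of 34 listed genes of the marrow stromal niche, 28 were tested, and at numbers 1 and 2, 12 were higher and 2 lower in KO CMP (8.23% and 10.2% of all genes), and 14 higher and 2 lower in KO GMP (11% and 9%), where the KO side is 1 library. The median log2 change of the list was 2.29 in KO CMP and 2.78 in KO GMP, against 0.01 and 0.00 for all genes. At numbers 3 and 4, 0 of these 28 were called in either cell type by edgeR. The summed level of the list was 1003 to 1021 CPM in KO CMP 1 and 2 and 1151 to 1206 CPM in KO CMP 3 and 4, against 1190 to 1294 CPM in WT CMP 1 and 2 and 1042 to 1184 CPM in WT CMP 3 and 4. Igfbp4 led it, an insulin-like growth factor binding protein that measured 520 to 895 CPM in every library. Next by mean CPM were Hp, Apoe and Vcam1. Apoe was called higher in KO CMP at numbers 1 and 2, and Hp and Vcam1 were the 2 called lower. Vcam1 measured 8.14 and 31.9 CPM in KO CMP 1 and 2, against 93.9 and 101.03 CPM in WT CMP 1 and 2. In the same libraries Hp measured 61.7 and 76.7 CPM, against 279.2 and 303.9 CPM. In KO GMP 1 Vcam1 measured 33.0 CPM, against 117.95 and 110.08 CPM in WT GMP 1 and 2. Hp measured 218.04 CPM there, against 545.1 and 557.4 CPM. Among the defining markers, Prrx1, a transcription factor of limb mesenchyme, measured 0.679, 1.75, 0.0419 and 0.0249 CPM in KO CMP 1 to 4, against 0.135, 0.0952, 0 and 0 CPM in WT CMP 1 to 4. Pdgfra, a mesenchymal growth factor receptor, measured 1.32, 2.67, 0.0839 and 0.0333 CPM in KO CMP 1 to 4, against 0.330, 0.0476, 0.0699 and 0 CPM in WT CMP 1 to 4. Lum, a small proteoglycan like Bgn, measured 0.310 CPM in KO CMP 2 and 0.112 CPM in KO GMP 1 and was at 0 in all other libraries, and Dcn, which encodes decorin, was at most 0.596 CPM. Pdgfrb, a growth factor receptor of perivascular cells, measured 58.9, 43.4, 55.6 and 53.1 CPM in KO CMP 1 to 4, against 32.5, 31.2, 63.7 and 57.1 CPM in WT CMP 1 to 4. It was called higher at numbers 1 and 2 in KO CMP (log2 change 0.68 ± 0.12, adjusted p = 0.00195) and in KO GMP (1.87 ± 0.15, adjusted p = 5.24e-06), and it lay at 53.1 to 63.7 CPM in the CMP libraries 3 and 4, where the 10 genes were low. Adipoq and Cxcl14, named after their values were seen, measured 4.51 and 5.92 CPM in KO CMP 1 and 6.23 and 7.52 CPM in KO CMP 2, against at most 0.575 and 0.734 CPM in WT CMP. The defining bone markers Bglap and Sp7 lay between 0 and 0.137 CPM and between 0 and 0.285 CPM. The whole osteoblast and osteocyte list summed to 24.8 and 24.9 CPM in KO CMP 1 and 2, against 15.7 and 18.9 CPM in WT CMP 1 and 2. Spp1 from this list (osteopontin, made by bone and other cells) measured 10.5 and 13.2 CPM in KO CMP 1 and 2, against 6.30 and 6.07 CPM in WT CMP 1 and 2, and was called higher in KO CMP (log2 change 0.94 ± 0.18, adjusted p = 0.00254). The part that stromal cells in the sorted samples play in the levels of the 10 genes was not tested.

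Marker lists of other cell types moved with the same libraries in part. Calls at numbers 1 and 2 are a description, because these contrasts chose the 10 genes. There 8.23% of all genes were called higher and 10.2% lower in KO CMP, and the shares in KO GMP are given above. Of 11 tested megakaryocyte genes, 5 were higher in KO CMP and 10 in KO GMP at numbers 1 and 2, with summed levels of 921 and 670.1 CPM in KO CMP 1 and 2 and 398 CPM in KO GMP 1, against 451 to 454 CPM in WT CMP 1 and 2 and 131 to 145 CPM in WT GMP 1 and 2. Of 12 tissue macrophage genes, 4 were higher in KO CMP and 7 in KO GMP, but the sum was 68.9 CPM in KO CMP 2 and 63.8 CPM in KO GMP 1 and 16.6 CPM in KO CMP 1, against 16.8 and 16.3 CPM in WT CMP 1 and 2. Of 14 endothelial genes, 5 were higher and 1 lower in KO CMP, and 8 higher in KO GMP. Their summed level was 187 to 231 CPM in KO CMP 1 and 2, against 136 to 143 CPM in WT CMP 1 and 2. At numbers 3 and 4, where the 10 genes were low, it was 163 to 173 CPM in KO CMP and 163 to 178 CPM in WT CMP. The defining endothelial markers Cdh5 and Stab2 differed. Cdh5 was at most 0.768 CPM, in WT CMP 4. Stab2 measured 0.489 and 2.08 CPM in KO CMP 1 and 2 and 1.11 CPM in KO GMP 1. Outside KO CMP 2 and KO GMP 1, Stab2 was at most 0.673 CPM, in WT CMP 1. Mpo, the granule peroxidase of myeloid progenitors, measured 3047 and 3590 CPM in KO CMP 1 and 2, against 13177 and 14822 CPM in WT CMP 1 and 2. The other defining progenitor markers were not lower in the same way. Cd34 measured 746 and 707 CPM in KO CMP 1 and 2, against 525 and 571 CPM in WT CMP 1 and 2. In the same libraries Kit measured 419 and 409 CPM, against 342 and 390 CPM, and Ptprc 204 and 346 CPM, against 245 and 168 CPM. In KO CMP 1 the stromal genes were thus high while the macrophage list was at the WT CMP level. Of the tested osteoblast (9), chondrocyte (5), mural (8) and erythroid (8) genes, 1 each was higher in KO CMP at numbers 1 and 2. With 8.23% of all genes called higher and so few genes per list, no result about these lists is read from that. Of the tested B and plasma cell (9), T and NK cell (7), osteoclast (4) and skeletal muscle (5) genes, 0 were called higher in either cell type by edgeR, and Nkg7, a cytotoxic granule gene, was called lower in both. The B and plasma cell sum was 68.9 and 496 CPM in KO CMP 1 and 2 and 135 CPM in KO GMP 1, against 342 and 440 CPM in WT CMP 1 and 2 and 114 to 116 CPM in WT GMP 1 and 2. Cd8a, a T cell co-receptor chain, measured 0.299 and 9.75 CPM in KO CMP 1 and 2, against 0.5997 and 0.547 CPM in WT CMP 1 and 2. KO CMP 2 was thus above KO CMP 1 for these markers, as for the macrophage list. Of 12 progenitor identity genes, 2 were higher and 6 lower in KO CMP, and 4 higher and 3 lower in KO GMP. The part of these cell types in the result was not tested.

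**Figure D5:**
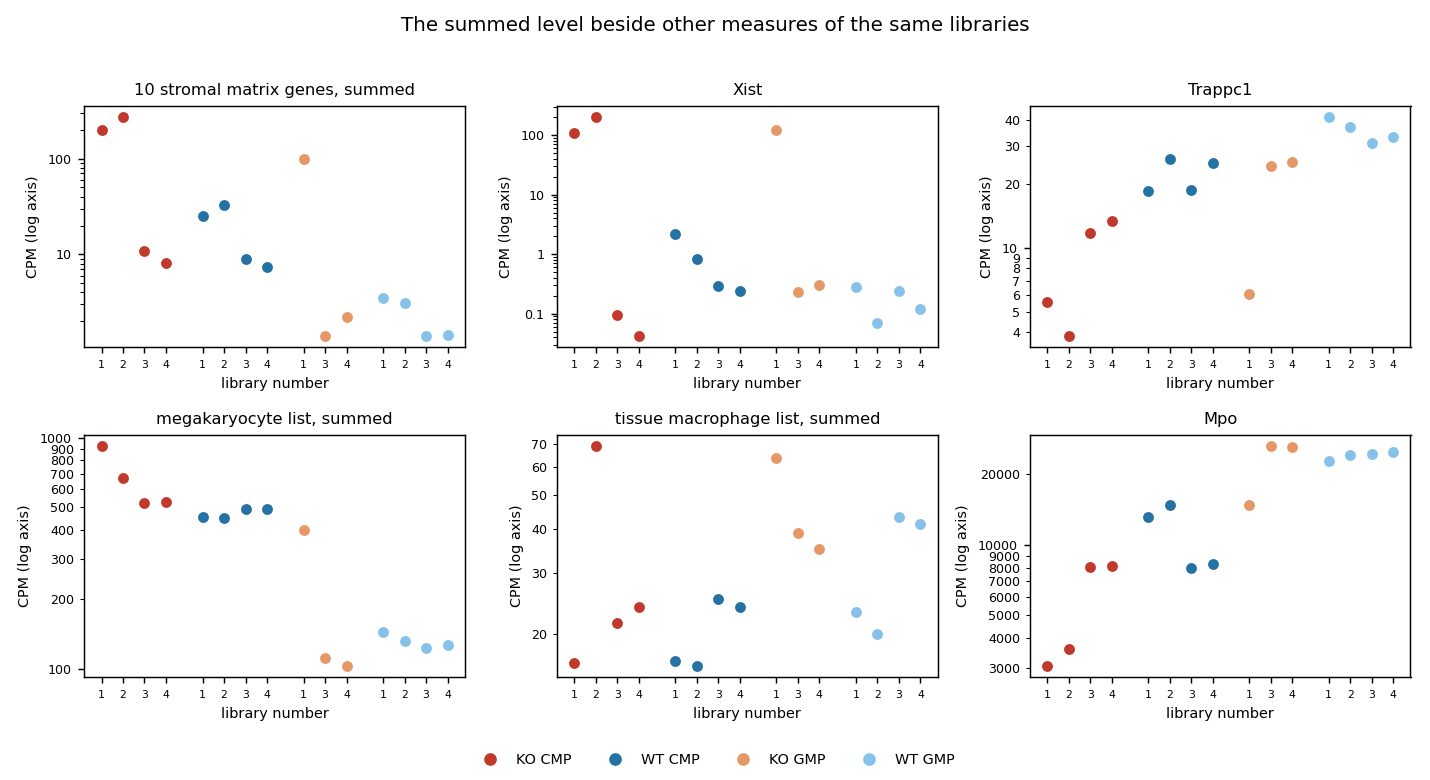
Summed CPM of the 10 genes, Xist, Trappc1, the megakaryocyte list, the tissue macrophage list and Mpo in every library (log axes). KO CMP 1, KO CMP 2 and KO GMP 1 are highest for the 10 genes and Xist and lowest for Trappc1, while the macrophage sum of KO CMP 1 (16.6 CPM) lies with WT CMP 1 and 2.

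Related matrix genes were read in the same fit at numbers 1 and 2. These contrasts chose the 10 genes, so the calls are a description. In KO CMP, 8.23% of all genes were called higher and 10.2% lower, and the shares in KO GMP are given above. Of 38 other collagens, 26 were tested, with 6 higher and 0 lower in KO CMP and 7 higher and 0 lower in KO GMP (median log2 change 0.74 and 1.67). Col4a1, a basement membrane collagen chain, measured 47.9, 47.7, 16.9 and 16.1 CPM in KO CMP 1 to 4, against 12.3, 11.7, 18.1 and 18.5 CPM in WT CMP 1 to 4, and was higher in KO CMP at numbers 1 and 2 (log2 change 1.995 ± 0.11, adjusted p = 1.99e-07 by edgeR). Col4a1 was higher in WT CMP 3 and 4 than in WT CMP 1 and 2, the other way round from the mean level of each of the 10 genes. Col4a2 and Col16a1 were called higher in both cell types, and Col11a2, the fourth of the most abundant other collagens, was called in neither (adjusted p = 0.0554 in CMP and 0.4997 in GMP).

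Of 34 tested matrix glycoproteins and proteoglycans, 10 were higher and 3 lower in KO CMP, and 11 higher and 3 lower in KO GMP (median log2 change 1.22 and 1.81). Among the most abundant, Lamc1, a laminin chain, was higher in KO CMP (log2 change 0.85 ± 0.17, adjusted p = 0.00385) and in KO GMP (1.22 ± 0.20, adjusted p = 0.00119). Fn1, which encodes fibronectin, was lower in KO GMP by 4.40 (log2 change -4.40 ± 0.31, adjusted p = 2.47e-06), at 1.91 CPM in KO GMP 1 against 38.0 and 42.8 CPM in WT GMP 1 and 2. Srgn, the granule proteoglycan serglycin of blood cells, was lower in KO CMP (-0.82 ± 0.10, adjusted p = 7.02e-05). The shares of all genes called in KO CMP were 8.23% higher and 10.2% lower.

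Of 36 tested genes for collagen folding, processing and export, 10 were higher and 7 lower in KO CMP, and 18 higher and 4 lower in KO GMP (median log2 change 0.93 and 0.98). The higher ones in both cell types included Serpinh1, the collagen chaperone Hsp47 (log2 change 3.43 ± 0.67, adjusted p = 0.00315 in KO CMP), and Lox, which crosslinks collagen (3.37 ± 0.97, adjusted p = 0.0367 in KO CMP). P4hb, a subunit of the collagen prolyl hydroxylase that also serves other secreted proteins, was lower in KO CMP (-0.72 ± 0.07, adjusted p = 1.23e-05) and in KO GMP (-0.32 ± 0.08, adjusted p = 0.0188). Serpinh1 and Lox were named after their values were seen. Beside the counts of this list, 8.23% of all genes were called higher and 10.2% lower in KO CMP.

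Of 15 tested receptors for the products of the 10 genes and for leptin, 0 were higher and 5 lower in KO CMP, and 1 was higher and 5 lower in KO GMP (median log2 change -0.18 and -0.22). Cxcr4, the receptor for Cxcl12, measured 41.1, 49.3, 78.3 and 71.1 CPM in KO CMP 1 to 4, against 94.2, 95.4, 93.7 and 97.3 CPM in WT CMP 1 to 4. It was lower in KO CMP at numbers 1 and 2 (log2 change -1.07 ± 0.09, adjusted p = 5.36e-06) and was not called at numbers 3 and 4 (-0.35 ± 0.09, adjusted p = 0.277). Lair1, an inhibitory collagen receptor of blood cells, was lower in KO CMP at numbers 1 and 2 (-1.35 ± 0.08, adjusted p = 1.99e-07). Across all genes, 8.23% were called higher and 10.2% lower in that contrast. Cd44 was lower in both cell types, and Itgb1, the shared chain of the collagen-binding integrins, was called in neither.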

How the data were processed

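The SMARTER kit made the libraries, per the labels' protocols. The aligner was HISAT and the build mm10, per the submitters' processing notes. The sources used here give no counting tool and no strand setting. The values the authors deposited are expected counts (estimated counts) per gene symbol, as whole numbers and not scaled between libraries. Of 40915 values from 1 to 40, 38.0% were multiples of 4 and 29.9% were 1 above a multiple of 4, against 25% for an even spread, so 4 units were taken as 1 fragment and 12 units as the floor of 3 fragments. Totals were 15.3 to 30.1 M fragments per library, so 1 fragment is worth 0.0333 to 0.0692 CPM. No 2 libraries of a group were identical (21 pairs, chi-square per degree of freedom of at least 4.88).

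Values were fitted with edgeR 4.0.16 (R 4.3.3): filterByExpr (15181 genes), TMM scaling and the quasi-likelihood test, with Benjamini-Hochberg adjustment over all tested genes at 0.05. GMP against CMP in WT came from a fit of the groups (11 residual degrees of freedom). Contrasts within a number set came from a fit that splits each group into numbers 1 and 2 and numbers 3 and 4 (7 residual degrees of freedom). In it, KO GMP has 1 library at numbers 1 and 2, assumed to vary like the others. CPM are TMM-scaled. Adjusted p-values are from edgeR and two-sided unless DESeq2 (1.42.0) is named. The fits were tested on simulated data. Deviations of same-numbered libraries from their group means correlated at 0.127 to 0.419 in every pair. Libraries of different numbers were not compared between groups, so these values do not show that the numbers pair libraries. A fit with the number as a block was an alternative. Other alternatives were RLE scaling, other filters, values divided by 4, DESeq2, libraries 3 and 4 only, and leaving out each library.

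The members, lists, number sets and tests were chosen with earlier results of these data known. Named genes are the members, Trappc1, Xist and Y-linked genes, defining cell type markers, the 4 genes of a described list with the highest mean CPM, and the 10 genes with the most similar profile; others are said to be named after their values were seen. Intervals and floors cover counting error only. Per-kilobase levels use the longest principal transcript in GENCODE M21.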

Additional observations from a re-analysis of the deposited data

Results flagged for a closer look

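In groups of 4 libraries, 32 sets of values of the 10 genes and their sum were searched for a library far from the other 3 by Dixon's 95% critical value. Col3a1 in WT GMP 2 was flagged: it measured 0.0566 CPM there, against 0 CPM in the other 3 WT GMP libraries. That value is 1 fragment. Chance flags about 1 in 20 groups.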

How the results depend on the processing

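Members called and genes called were recomputed under each alternative. For KO against WT in CMP numbered 3 and 4, edgeR called 1 gene, against 4 with no filter, 4 with the replicate block, 19 with libraries 3 and 4 only, 138 with DESeq2 and 0 to 46 with 1 library left out (46 without KO CMP 1, 42 without KO CMP 2, 4 without KO CMP 3, and 0 without KO CMP 4, WT CMP 1 or WT CMP 2); DESeq2 called 2 members and each other alternative 0. For KO against WT in GMP numbered 3 and 4, it called 2 genes, against 12 with no filter, 4 at 1 CPM in 3 libraries, 9 with values divided by 4, 6 with the replicate block, 11 with libraries 3 and 4 only, 43 with DESeq2 and 1 to 6 with 1 library left out (6 without KO GMP 3, and 1 without KO GMP 4, WT GMP 1 or WT GMP 2). No member was called there under any of them, and the log2 change of Bgn ran from -1.21 to 0.0756 with 1 library left out. For GMP against CMP in WT, 3872 genes were called, against 5851 within numbers 3 and 4 and 2430 to 3910 with 1 library left out (2430 without WT CMP 3). Of the members, 1 was called there, against 0 with RLE factors, with no filter and with values divided by 4, 2 with the replicate block, 3 with DESeq2, 3 within numbers 3 and 4 and 0 to 0 with 1 library left out. For GMP against CMP in KO numbered 3 and 4, 5 members were called with a fold change, and 3 to 5 with 1 library left out (3 without KO GMP 3). The causes were not tested. Apart from Bgn in WT and Col6a2 in KO, the block changed no call of a member between GMP and CMP, and none between KO and WT. The summed level in WT GMP averaged 1.08 CPM without the highest member, against 2.37 CPM with it, and a pseudocount of 0.5 kept 4 of the 10 most similar genes. In GMP libraries 3 and 4, members other than Cxcl12 and Bgn had at most 4 fragments, so depth limits their comparison.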
